A study of Homo sapiens with 12 samples.

Results

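IGF2BP1 and IGF2BP2 are RNA-binding proteins of one family, and their binding sites were compared here in HepG2, a human liver cancer cell line. A site was kept for a protein when clusters from both of its 2 libraries overlapped on the same strand by at least 1 nt, and the overlapping clusters were merged. The sites of both proteins were merged again into loci, each of which was IGF2BP1-only, shared or IGF2BP2-only. There were 10983 such loci, against 45174 merged sites over all 12 libraries of the series. Of these loci, 7880 were IGF2BP1-only, 2707 (24.6%) were shared and 396 were IGF2BP2-only.

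The sites came from PAR-CLIP, in which cells are fed 4-thiouridine (4SU), crosslinked with ultraviolet light and digested with RNase T1, and the RNA held by an antibody to the protein is sequenced. All libraries were from wild-type HepG2 cells given 4SU, and by their labels those of IGF2BP1 and IGF2BP2 differed in the protein that was precipitated. IGF2BP1 and IGF2BP2 had 2 libraries each, and the other 8 libraries of the series covered IGF2BP3, METTL1 and WDR4. No knockdown, input or mock library was among them, and the clusters carried no score or read count, so the read depth behind each cluster is unknown and the RNA level of a target was not measured.

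Members of this family carry RNA recognition motifs followed by KH domains, and the KH domains make most of the specific contacts with RNA. They are known in fetal tissue and in tumours, and the study describes IGF2BP2 as widely present in adult tissues too. They bind mostly in the 3' UTR of mRNAs and keep them stable or hold back their translation. They have been described as readers of N6-methyladenosine, and the study asked whether they also read internal 7-methylguanosine (m7G), which METTL1 with its partner WDR4 writes. Their known short RNA element is CAU followed by any base but G, that is CAUA, CAUC or CAUU, written below as the CAU element. It was searched on the transcript strand alone.

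Sequences of the 3 kinds of loci are shown first, as their bases differed. They are the central 30 nt, or all of a shorter locus, of the widest exonic single-copy locus in genes rich in loci of that kind. The bases are hg38, read 5′ to 3′ on the transcript strand with T for U, and capitals mark a CAU element (CATA, CATC or CATT). Loci bound by IGF2BP1 with no cluster in either IGF2BP2 library were the following.
APOB, coding sequence, chr2:21012283-21012353, minus strand, central 30 nt: gccggctcaatggagagtccaacctgaggt
PEG10, 3' UTR, chr7:94665704-94665745, plus strand, central 30 nt: gccctcaaaatttattcctgttcagcttct
LPP, 3' UTR, chr3:188881999-188882059, plus strand, central 30 nt: atctcttactcagctcttcaatttataatt
MBNL3, 3' UTR, chrX:132374727-132374785, minus strand, central 30 nt: ttttaaaactataCATAaagatactgtgga
HIPK2, coding sequence, chr7:139573205-139573268, minus strand, central 30 nt: tgccgctgcccacctccccacccagcccca

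Loci found in all 4 libraries of both proteins were the following, in the same layout.
APOB, coding sequence, chr2:21008872-21008935, minus strand, central 30 nt: tacCATCcttaacaccttccaCATTccttc
PLBD2, 3' UTR, chr12:113390057-113390244, plus strand, central 30 nt: ttacgaagttcttatctatctatcacccat
MDM2, 3' UTR, chr12:68843681-68843808, plus strand, central 30 nt: aatggccaaagggattagtagtttacctgt
HAPSTR1, 3' UTR, chr16:9117932-9117975, plus strand, central 30 nt: caactctccctgtccctccaatccctctcc

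Loci found in both IGF2BP2 libraries with no cluster in either IGF2BP1 library were the following.
SEPTIN9, 3' UTR, chr17:77499577-77499603, plus strand, whole locus: ccgtggcttgggctggtcagagtggcg
NECTIN1, 3' UTR, chr11:119664122-119664146, minus strand, whole locus: cggggccttgggcagtgttttcctg
GNB5, 3' UTR, chr15:52119245-52119283, minus strand, central 30 nt: ctctctccttcctatctcctctttcctctt
The SEPTIN9 stretch holds 13 G in 27 nt and the NECTIN1 stretch 10 G in 25 nt, whereas the GNB5 stretch holds 0. The 5 IGF2BP1-only stretches hold 1 to 10 G. The element can lie outside the printed stretch: the PLBD2 locus holds 12 of them, and the printed centre holds 0. These stretches are examples, and the counts over all loci are given further on.

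IGF2BP1 replicates 1 and 2 held 14502 and 15701 clusters, against 4581 and 7469 for IGF2BP2. The other 8 libraries held 6009 to 9765 clusters. Median widths were 42 and 40 nt for IGF2BP1 and 43 and 42 nt for IGF2BP2. Of 18 liver marker genes, 14 had an exonic cluster in at least 1 of the 4 libraries, with APOA1, TTR and FOXA2 among those without one, while 0 of 14 markers of other lineages had one. For comparison, 4479 of all 20046 protein-coding genes had a cluster in at least 1 of these 4 libraries. The labels number the replicates within a protein without saying whether they were separate cultures, while the study's methods describe plates seeded for each replicate. The p-values therefore measure the spread between these libraries, which may be technical.

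Most IGF2BP2 loci were IGF2BP1 loci too, and the reverse did not hold. Shared loci made up 87.2% of the 3103 IGF2BP2 loci (95% Wilson interval 86.0 to 88.4) and 25.6% of the 10587 IGF2BP1 loci (24.7 to 26.4). Without IGF2BP2 replicate 1, when a single library stands for the protein, these shares were 59.2% and 40.9%. All intervals given for shares of loci or clusters cover counting error only, and loci are not replicates of a protein.

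Single libraries showed the same imbalance. IGF2BP2 replicate 1 had 80.6% and 79.4% of its clusters overlapped by a cluster of IGF2BP1 replicates 1 and 2, and IGF2BP2 replicate 2 had 66.7% and 65.9%. In the other direction, 25.02% and 33.97% of the clusters of IGF2BP1 replicate 1, and 22.7% and 30.9% of those of replicate 2, were overlapped by IGF2BP2 replicates 1 and 2. The larger IGF2BP2 library was thus the one with the larger part outside the IGF2BP1 clusters. Reproducibility differed as well, with 54.7% of 19367 merged IGF2BP1 sites and 36.2% of 8768 merged IGF2BP2 sites found in both libraries of the protein. Because the IGF2BP2 libraries held fewer clusters and depth is unknown, an IGF2BP1-only locus and a locus missed in a smaller IGF2BP2 library cannot be told apart.

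A one-protein locus was not always empty for the other protein. Of the 7880 IGF2BP1-only loci, 5688 had no cluster in either IGF2BP2 library, 2184 had a cluster in 1 of them and 8 had clusters in both that did not form a reproducible site. Of the 396 IGF2BP2-only loci, 150 had no cluster in either IGF2BP1 library and 246 had one in 1 library. So 4.83% of all IGF2BP2 loci had no IGF2BP1 cluster at all, against 53.7% of IGF2BP1 loci with no IGF2BP2 cluster.

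The 3' UTR was the leading region for both proteins, and the coding sequence was the region in which IGF2BP1 stood higher. Over all clusters, the 3' UTR held 42.6% and 42.8% for IGF2BP1 and 43.0% and 39.4% for IGF2BP2, so the groups overlapped. The coding sequence held 10.9% and 11.9% for IGF2BP1 and 7.42% and 7.99% for IGF2BP2, without overlap and with a difference of -3.70 points (IGF2BP2 minus IGF2BP1). Clusters on chromosome M, the mitochondrial genome, made up 1.13% and 0.930% for IGF2BP1 and 4.15% and 2.65% for IGF2BP2, again without overlap. Intron shares (22.3% and 21.8% against 20.6% and 24.4%) and intergenic shares (13.0% and 12.6% against 12.2% and 14.3%) overlapped.

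With 2 libraries against 2, the two-sided exact permutation test has 6 splits and cannot give a p below 0.333. That was the p for the coding sequence and for chromosome M, and it became 0.533 after Benjamini-Hochberg adjustment over the 8 region classes. No region share can therefore pass a threshold of 0.05 in this design.

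Among the reproducible loci, those bound only by IGF2BP2 were the least exonic. The 3' UTR held 30.3% of IGF2BP2-only loci (25.98 to 35.0), 49.2% of shared loci (47.3 to 51.1) and 45.1% of IGF2BP1-only loci (43.99 to 46.2). Coding sequence held 4.04%, 7.94% and 13.3% in that order, so the coding share was highest among IGF2BP1-only loci. Introns held 27.8% of IGF2BP2-only loci, 17.1% of shared loci and 20.5% of IGF2BP1-only loci, and intergenic sequence held 19.4%, 10.3% and 11.8%. The IGF2BP2-only share differed from the IGF2BP1-only share by -14.8 points in the 3' UTR (95% Newcombe interval -19.2 to -9.96), by -9.23 points in coding sequence (-11.0 to -6.70) and by 7.30 points in introns (3.02 to 11.99). The intergenic difference was 7.63 points, and 3.34 points without IGF2BP1 replicate 2. Leaving out IGF2BP1 replicate 1 gave -9.20 points for the 3' UTR and 2.36 points for introns.

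**Figure D1:**
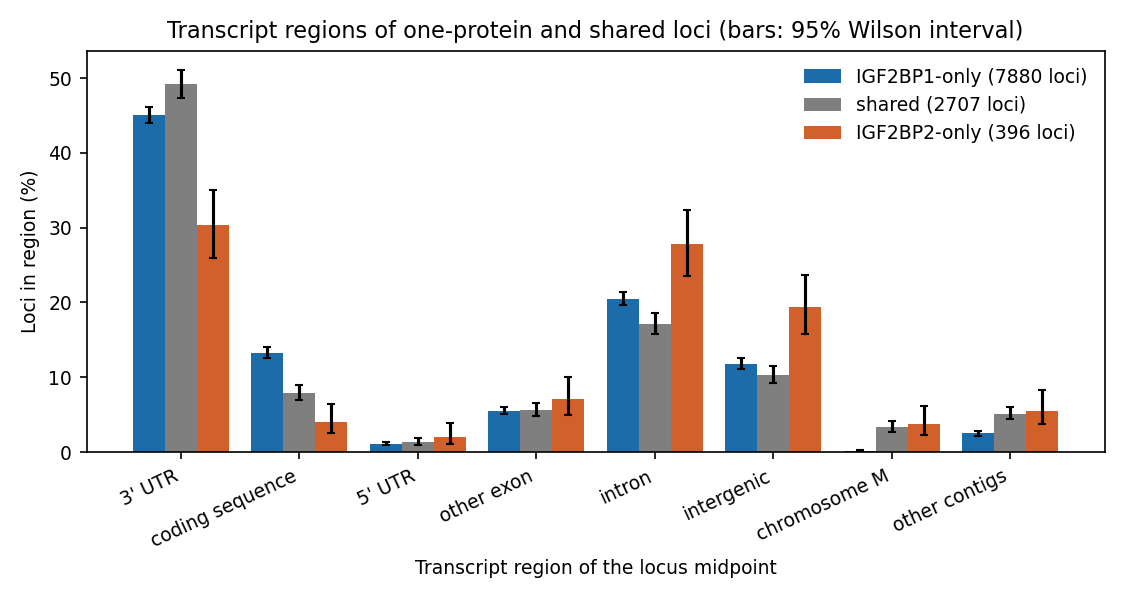
Percent of loci (vertical axis) whose midpoint lies in each transcript region (horizontal axis), for IGF2BP1-only, shared and IGF2BP2-only loci, with 95% Wilson intervals as bars. IGF2BP2-only loci are lowest in the 3' UTR (30.3%) and in coding sequence (4.04%) and highest in introns (27.8%) and intergenic sequence (19.4%).

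Repeated sequence moved with these regions. The central 20 nt occurred once in hg38 in 67.2% of IGF2BP1-only loci, 53.6% of shared loci and 37.6% of IGF2BP2-only loci, and more than 100 times in 10% (788 loci), 13.0% and 22.98%. Among loci with a single-copy centre, the one-protein loci differed by -4.52 points in the 3' UTR, by -0.30 points in intergenic sequence and by -8.60 points in coding sequence. The part of repeated sequence in the remaining differences was not tested. Within mRNA regions alone, the 3' UTR took 75.8% of IGF2BP1-only loci, 84.1% of shared loci and 83.3% of the 144 IGF2BP2-only loci.

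Positions within the 3' UTR overlapped widely between the 3 kinds of loci. With 0 at the stop codon and 1 at the transcript end, the median relative position was 0.424 for 3398 IGF2BP1-only loci, 0.408 for 1267 shared loci and 0.486 for 116 IGF2BP2-only loci. The quartiles were 0.204 to 0.671, 0.218 to 0.681 and 0.272 to 0.732. Loci within 100 nt of the stop codon made up 5.30% (4.59 to 6.10), 4.42% (3.42 to 5.70) and 1.72% (0.474 to 6.07). Of the 116 IGF2BP2-only loci, 86 lay in a 3' UTR that also had a reproducible IGF2BP1 site, at a median distance of 387.5 nt, and 16 lay within 100 nt of that site. IGF2BP2-only loci in 3' UTRs thus lay mostly on IGF2BP1 targets. At the locus itself, 79 of the 116 had a cluster in 1 IGF2BP1 library and 37 had none.

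On the mitochondrial chromosome most IGF2BP1 loci were shared. It held 12 of the IGF2BP1-only loci (0.152%), 91 of the shared loci (3.36%) and 15 of the IGF2BP2-only loci (3.79%). The difference of 3.64 points between the one-protein loci was 0.74 points without IGF2BP2 replicate 1, 1.82 points without IGF2BP2 replicate 2 and 5.68 points without IGF2BP1 replicate 2. All 13 protein-coding genes of this chromosome had reproducible sites of both proteins, and 31 of the 36 loci assigned to them were shared. MT-CYB, the cytochrome b of respiratory complex III, had 9 and 8 clusters for IGF2BP1 and 7 and 10 for IGF2BP2. MT-ND5, a subunit of complex I, had 8 and 5 against 8 and 7, and MT-CO3, a subunit of cytochrome c oxidase, had 7 and 5 against 5 and 5. IGF2BP1 and IGF2BP2 are known as cytoplasmic proteins. No mock library was there to give the background of such abundant transcripts. Nuclear tRNA genes, the best known substrates of METTL1, held 1 IGF2BP1-only locus, 0 shared loci and 0 IGF2BP2-only loci. Reads matching more than 10 places were left out in the study's mapping, and the part of this in the tRNA counts was not tested.

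Sequence separated the 2 proteins in the same direction in single libraries and in loci. The CAU element was found in 60.5% and 62.5% of the clusters of the IGF2BP1 libraries, widened by 10 nt on both sides, and in 51.7% and 49.7% of those of the IGF2BP2 libraries. The groups did not overlap, and the IGF2BP1 mean was 61.5% ± 1.41 (SD, n = 2) and the IGF2BP2 mean 50.7% ± 1.45 (SD, n = 2). Among loci, widened alike, it was in 66.6% of IGF2BP1-only loci (65.5 to 67.6), 62.9% of shared loci (61.1 to 64.7) and 35.4% of IGF2BP2-only loci (30.8 to 40.2), against 64.6% of all loci. Restricted to 3' UTR loci, the IGF2BP2-only share was still lower by 28.4 points, and in the widened loci of all regions it was lower by 31.2 points (26.3 to 35.9).

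The shared loci were wider, with a median of 55 nt against 40 nt for IGF2BP1-only and 44 nt for IGF2BP2-only loci, so windows of one length were compared as well. In the 41 nt around the locus centre, the element was found in 58.0% of IGF2BP1-only loci, 45.7% of shared loci and 24.7% of IGF2BP2-only loci. Flanking windows of the same length 100 nt away held it in 39.5%, 36.6% and 29.2%. The element was therefore denser than in the local flanks at IGF2BP1-only and shared loci. So was the word CACA, with 23.01% against 15.6% and 18.1% against 14.1%. Other words without G were not. UUUUU was in 7.75% against 12.8% and in 5.36% against 13.4%, in that order of loci. AUUUA was in 6.29% against 6.68%, with overlapping intervals (5.78 to 6.85 against 6.30 to 7.08), and in 4.36% against 5.97%. At IGF2BP2-only loci the centre had a lower share of the CAU element than the flanks, with overlapping intervals (20.8 to 29.2 against 26.1 to 32.4). IGF2BP1-only loci with no IGF2BP2 cluster at all stood at 61.8%, and those with an IGF2BP2 cluster at 48.2%.

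The position of the element around the locus centre showed the same order. In the 10 nt just before the centre, 28.9 elements started per 100 IGF2BP1-only loci, 19.6 per 100 shared loci and 9.19 per 100 IGF2BP2-only loci. In the outermost bin upstream, which begins 150 nt before the centre, the values were 14.7, 14.1 and 9.47. A peak over the centre was thus present for IGF2BP1-only and shared loci and not visible for IGF2BP2-only loci.

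**Figure D2:**
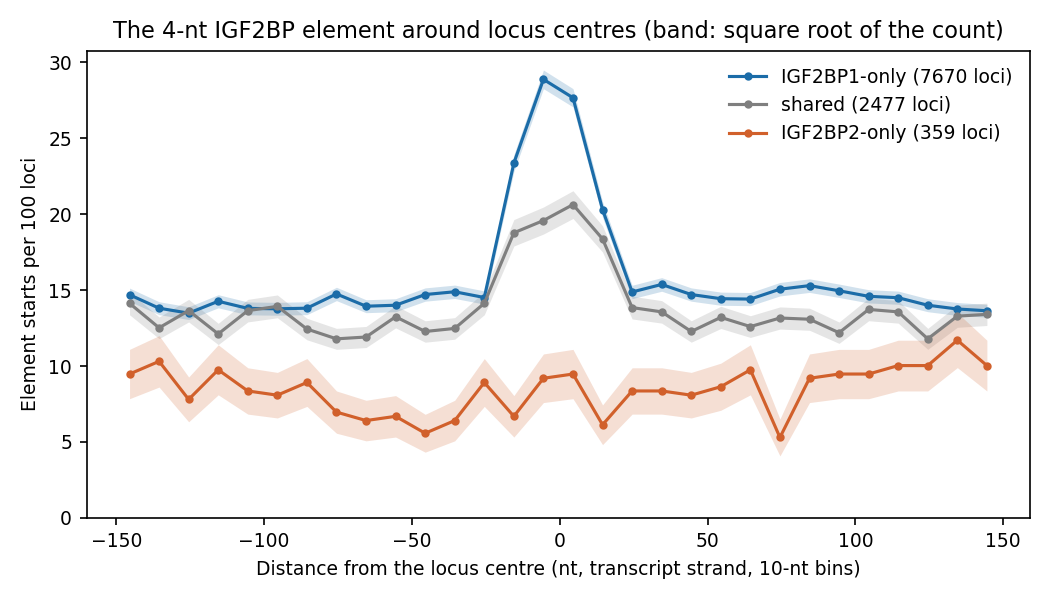
Number of CAU element starts per 100 loci (vertical axis) by distance from the locus centre in nt (horizontal axis, 10-nt bins), for loci on which the whole window could be read; bands are the square root of the count. The 7670 IGF2BP1-only loci peak at 28.9 just before the centre, the 2477 shared loci reach 20.6 just after it, and the 359 IGF2BP2-only loci show no peak.

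In the widened loci GGAC, GGCA and CGGC stood in the opposite order. GGAC, the form of the N6-methyladenosine consensus searched here, was in 10.4% and 9.55% of IGF2BP1 clusters and in 12.5% and 12.8% of IGF2BP2 clusters. It was in 8.90% of IGF2BP1-only loci, 15.2% of shared loci and 16.7% of IGF2BP2-only loci, against 10.7% of all loci. Around the locus centre, GGAC was below its flanks at IGF2BP1-only loci (4.73% against 8.58%) and at about their level at IGF2BP2-only loci (10.4% against 9.97%). GGCA was in 14.3%, 21.4% and 23.99% of the 3 kinds of loci (16.4% of all loci), and CGGC in 7.40%, 15.1% and 18.4% (9.70% of all loci). In the 41 nt around the centre GGCA was in 7.20%, 6.83% and 15.4% against 13.5%, 13.7% and 16.3% in the flanks, so there IGF2BP1-only and shared loci stood at a like level below their flanks. CGGC was in 4.39%, 8.83% and 13.9% around the centre against 4.56%, 7.70% and 8.46% in the flanks, and so stood above its flanks at IGF2BP2-only loci. UGUA, which also holds G, was highest in shared loci when the widened loci were read, with 14.8%, 20.9% and 17.4% (16.4% of all loci). Among widened 3' UTR loci its IGF2BP2-only share differed from the IGF2BP1-only share by -3.45 points. In the 41 nt around the centre UGUA was in 6.37%, 7.35% and 9.60%, below its flanks in all 3 kinds of loci. IGF2BP2-only loci were thus highest there, with an interval overlapping that of shared loci (7.07 to 12.9 against 6.43 to 8.40). CACA, which has no G, was in 29.5%, 29.2% and 14.4% (28.9% of all loci).

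The bipartite element described for IGF2BP3, which is GGCA or CGGC and then CA within a set range of spacing, was found in 13.1% and 11.4% of IGF2BP1 clusters and 13.9% and 15.1% of IGF2BP2 clusters. It was in 11.2% of IGF2BP1-only loci, 18.0% of shared loci and 16.9% of IGF2BP2-only loci, against 13.1% of all loci. The difference of 5.68 points between the one-protein loci was 0.75 points without IGF2BP1 replicate 2. In the 41 nt around the centre it was at or below its flanks in all 3 kinds of loci, with 4.63% against 6.45%, 4.36% against 6.30% and 8.84% against 9.34%. It thus showed no rise at the centre.

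The content of G itself moved with these shares. G made up 16.6% and 15.5% of the bases in IGF2BP1 clusters and 18.9% and 19.6% in IGF2BP2 clusters, widened by 10 nt. It made up 14.5% of the bases of IGF2BP1-only loci, 18.6% of shared loci and 24.5% of IGF2BP2-only loci. Of all tetramers (4-letter words), 76 (29.7%) were more frequent in both IGF2BP1 libraries than in both IGF2BP2 libraries, and 1 of these contains G. In the other direction there were 151 tetramers (59%), and all 151 contain G. The largest differences were -7.05 points for UUUC, -6.92 for CUUU, -6.87 for CAUC, 6.69 for CUGG, -6.59 for CUUC and 6.47 for GGCU (IGF2BP2 minus IGF2BP1). RNase T1 cuts after G, and its part in these differences was not tested. Of the 15 sequence measures, 13 did not overlap between the proteins and had the lowest possible p of 0.333 in the exact permutation test, or 0.385 after adjustment over the 15, while the C content and the median width overlapped.

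Libraries of the other proteins, which took no part in choosing the loci, divided at the one-protein loci. IGF2BP3 clusters were found more often at IGF2BP1-only loci, and METTL1 and WDR4 clusters more often at IGF2BP2-only loci. IGF2BP3 replicates 1 and 2 had a cluster at 41.6% and 43.3% of IGF2BP1-only loci and at 11.4% and 16.9% of IGF2BP2-only loci. The 2 IGF2BP3 libraries labelled bio2 had one at 24.1% and 22.7% of IGF2BP1-only loci and at 10.1% and 9.09% of IGF2BP2-only loci. Clusters of these bio2 libraries were narrower, with median widths of 34 and 35 nt against 38 to 43 nt elsewhere, and the part of width was not tested. METTL1 had clusters at 8.32% and 10.5% of IGF2BP1-only loci and at 36.4% and 41.9% of IGF2BP2-only loci, and WDR4 at 12.6% and 10.4% against 37.1% and 34.1%. All 4 IGF2BP3 libraries thus lay on one side and all 4 libraries of the m7G writer complex on the other.

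**Figure D3:**
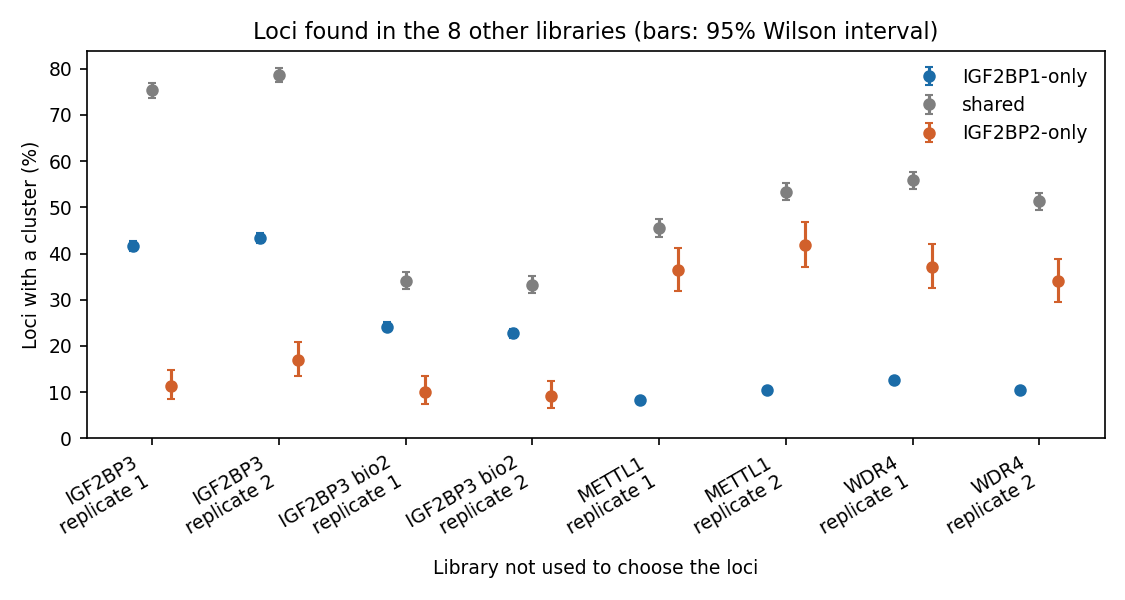
Percent of IGF2BP1-only, shared and IGF2BP2-only loci (vertical axis) with a cluster in each of the 8 libraries of IGF2BP3, METTL1 and WDR4 (horizontal axis), with 95% Wilson intervals as bars. IGF2BP1-only loci lie above IGF2BP2-only loci in the 4 IGF2BP3 libraries and below them in the 4 METTL1 and WDR4 libraries, and shared loci are highest in all 8.

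As a log2 ratio of the IGF2BP2-only to the IGF2BP1-only percentage, the mean was -1.45 ± 0.28 (SD, n = 4) over the IGF2BP3 libraries and 1.85 ± 0.26 (SD, n = 4) over those of METTL1 and WDR4. Their difference of 3.30 gave p = 0.0286 in the two-sided exact permutation test, the smallest its 70 splits allow, and 0.0571 after adjustment over the 2 tests made on these libraries. Without the bio2 libraries the difference was 3.46 with an exact p of 0.0667, and with the protein as the unit the exact p was 0.333; neither design can go lower. Libraries of 1 protein are not independent of each other, and METTL1 and WDR4 act as a complex. Over all 8 libraries the mean difference in percentage, IGF2BP2-only minus IGF2BP1-only, was 2.94 points, with a two-sided exact sign-flip permutation p of 0.766.

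Without IGF2BP2 replicate 1 the METTL1 and WDR4 gaps (IGF2BP2-only minus IGF2BP1-only) were 4.10 to 8.18 points and their log2 ratios 0.56 to 1.15, and without IGF2BP2 replicate 2 the gaps were 8.72 to 13.1 points, against 23.7 to 31.4 points with both. Among single-copy loci the log2 ratio ran from -3.65 to -1.28 in the IGF2BP3 libraries and from 1.71 to 2.46 in the METTL1 and WDR4 libraries. Among 3' UTR loci it ran from -4.92 to -1.31 and from 0.95 to 1.86. The IGF2BP2-only loci numbered 149 with a single-copy centre and 120 in 3' UTRs. Very few of these had a cluster in the bio2 libraries, which gave the lowest ratios, so those values are imprecise. Shared loci were the best covered by both kinds of library: 85.6% had a cluster in at least 1 IGF2BP3 library and 77.4% in at least 1 METTL1 or WDR4 library. Their greater width, given above, moved with this coverage, and its part was not tested. These percentages were 59.6% and 27.0% for IGF2BP1-only loci and 25.3% and 66.2% for IGF2BP2-only loci. A cluster of the writer complex without any of IGF2BP3 was found at 46.2% of IGF2BP2-only loci, 9.60% of shared loci and 11.1% of IGF2BP1-only loci.

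At the level of genes the IGF2BP2 targets were almost wholly contained in the IGF2BP1 targets. Of 20046 protein-coding genes, 3201 (16%) had a reproducible exonic site of either protein. IGF2BP1 sites were found in 3156 of them and IGF2BP2 sites in 1171 (36.6%). Both proteins had a site in 1126 genes, IGF2BP1 alone in 2030 (63.4%) and IGF2BP2 alone in 45 (1.41%). In 1096 of the 1126 genes with both, at least 1 exonic locus was shared. Of the 45 IGF2BP2-alone genes, 13 had no exonic IGF2BP1 cluster in either library.

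Genes with more IGF2BP1 sites more often had an IGF2BP2 site. An IGF2BP2 site was present in 19.99% of 1771 genes with 1 IGF2BP1 site, in 37.9% of 660 genes with 2, in 63.8% of 472 genes with 3 to 4, in 85.1% of 215 genes with 5 to 9, and in all 38 genes with 10 or more. Transcript length and abundance differ between these genes as well, and their part was not tested. Most genes had 1 locus of a kind. This held for 131 of the 140 genes with an IGF2BP2-only exonic locus and for 809 of 1096 with a shared one. Of 2766 genes with an IGF2BP1-only exonic locus, 1691 had 1 and 112 had 5 or more.

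The genes with the most IGF2BP1-only loci were bound by IGF2BP2 too, at fewer places. APOB, the main protein of low-density lipoprotein, had 43 and 50 exonic clusters for IGF2BP1 and 13 and 20 for IGF2BP2. Its loci comprised 27 IGF2BP1-only, 12 shared and 0 IGF2BP2-only, and 37 of them lay in coding sequence. PEG10, an imprinted gene derived from a retrotransposon, had 19 and 21 clusters against 6 and 8, with 13 IGF2BP1-only and 5 shared loci. LPP, a protein of focal adhesions, had 17 and 21 against 3 and 3, with 13 IGF2BP1-only and 2 shared loci, all in the 3' UTR. These 3 genes were chosen by their IGF2BP1-only loci, and the IGF2BP1 libraries held more clusters in all. Their higher cluster numbers in both IGF2BP1 libraries are therefore no separate result.

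The next genes in that order were MBNL3, a splicing regulator, with 12 IGF2BP1-only loci, HIPK2, a nuclear kinase, with 11, and NFAT5, a transcription factor of the response to salt stress, with 11. PTCHD4, a membrane protein of the patched family, also had 11, and MFSD4B, a membrane transporter, had 10, as did 2 further genes that are not named. PTCHD4 had 13 and 15 clusters in the IGF2BP1 libraries against 3 and 3 in the IGF2BP2 libraries. MFSD4B came closer, with 19 and 21 against 10 and 14. The gene order rests on numbers of loci, which grow with transcript length.

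IGF2, the fetal growth factor after which the family is named, had near equal cluster numbers. It had 37 and 36 exonic clusters for IGF2BP1 and 34 and 36 for IGF2BP2, which overlapped, and it shares its strand with the read-through gene INS-IGF2. Of its 32 loci, 28 were shared, 4 were IGF2BP1-only and 0 were IGF2BP2-only, and 24 lay in the 3' UTR. PLBD2, a lysosomal phospholipase-like protein, was alike, with 14 and 14 against 14 and 15 clusters and 10 of its 11 loci shared. MDM2, the ubiquitin ligase that acts on p53, had 14 and 14 against 11 and 12, with 10 shared and 2 IGF2BP1-only loci. IGF2, PLBD2 and MDM2 were chosen by their shared loci, which need clusters of both proteins. Their like cluster numbers are therefore no separate result.

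Further genes with many shared loci were APOB with 12, HAPSTR1, a regulator of stress signalling, with 8, ZNF121, a zinc finger protein, with 8, NFAT5 with 7 and RPS29 with 7. HAPSTR1 had 17 and 15 clusters against 11 and 12, and ZNF121 15 and 16 against 10 and 9. RPS29 encodes a protein of the small ribosomal subunit. All 15 of its loci were in the 3' UTR as annotated, in a gene model that spans chr14:49570984-49599164. APOB and NFAT5 stood in both orders, with many IGF2BP1-only and many shared loci on the same mRNA.

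**Figure D4:**
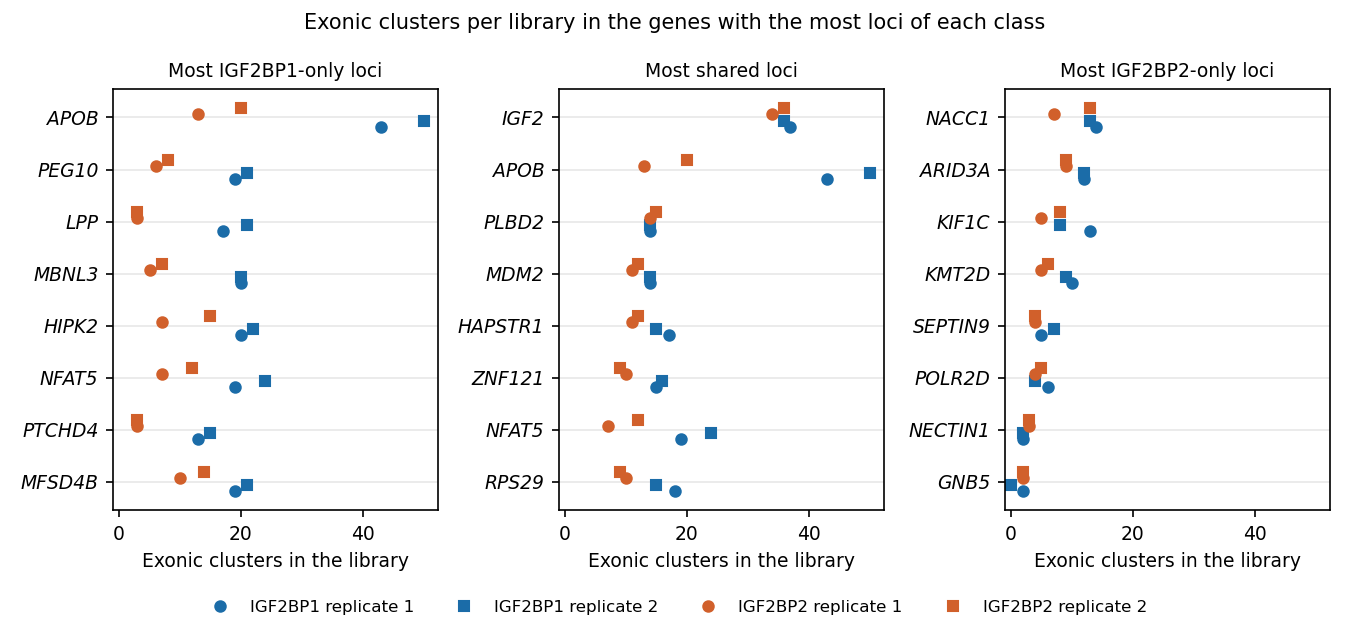
Number of exonic clusters (horizontal axis) in each of the 4 libraries for the 8 genes with the most IGF2BP1-only, shared or IGF2BP2-only loci (panels); symbols mark the library. IGF2 lies at 34 to 37 in all 4 libraries, whereas APOB lies at 43 and 50 for IGF2BP1 and at 13 and 20 for IGF2BP2.

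Genes with IGF2BP2-only loci had few of them. NACC1, a transcriptional repressor, had 3, beside 7 IGF2BP1-only and 3 shared loci. ARID3A, a DNA-binding transcription factor, had 2 beside 3 IGF2BP1-only and 7 shared loci, and KMT2D, a histone H3 lysine methyltransferase, had 2 beside 6 and 2. KIF1C, a kinesin motor, SEPTIN9, a cytoskeletal GTPase, POLR2D, a subunit of RNA polymerase II, and NECTIN1, a cell adhesion protein, had 2 each, and so did GNB5, a G protein beta subunit. Among these 8 genes GNB5 alone had no reproducible IGF2BP1 site, with 2 and 0 clusters for IGF2BP1 and 2 and 2 for IGF2BP2. POLR2D had 6 and 4 against 4 and 5 clusters, and 0 shared loci among its 4. In all, 8 genes had 2 such loci.

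Gene function was described by 18 lists, each read against the 36.6% of all target genes that had an IGF2BP2 site. No list was tested, and lists of this size carry wide intervals. The lists farthest above that level were the mitochondrially encoded proteins, at 13 of 13 genes, and the cytosolic ribosomal proteins, at 11 of 16 genes (68.8%, 44.4 to 85.8). Chromatin remodellers and histone methylation genes followed at 13 of 23 (56.5%, 36.8 to 74.4), and oncofetal and let-7 target genes at 11 of 20 (55%, 34.2 to 74.2). Counted by loci, 86.1%, 43.6%, 23.7% and 36.7% were shared in these lists, in that order, against 24.9% in all protein-coding genes. The chromatin list was thus not above the background by loci. For these reproducible sites SRSF and HNRNP splicing factors were lowest, at 1 of 8 (12.5%, 2.24 to 47.1), the 1 being HNRNPUL1 with 2 shared loci. When any exonic IGF2BP2 cluster counted, 37.8% of all target genes were IGF2BP1-alone, and all the others had such a cluster. On that count 50% of the splicing factor genes had one, and the nuclear respiratory chain genes were lowest at 35.7%. Both values lay below the share of all target genes with such a cluster. For reproducible sites, the intervals of all lists but the mitochondrial, ribosomal and chromatin ones held the background level of 36.6%.

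**Figure D5:**
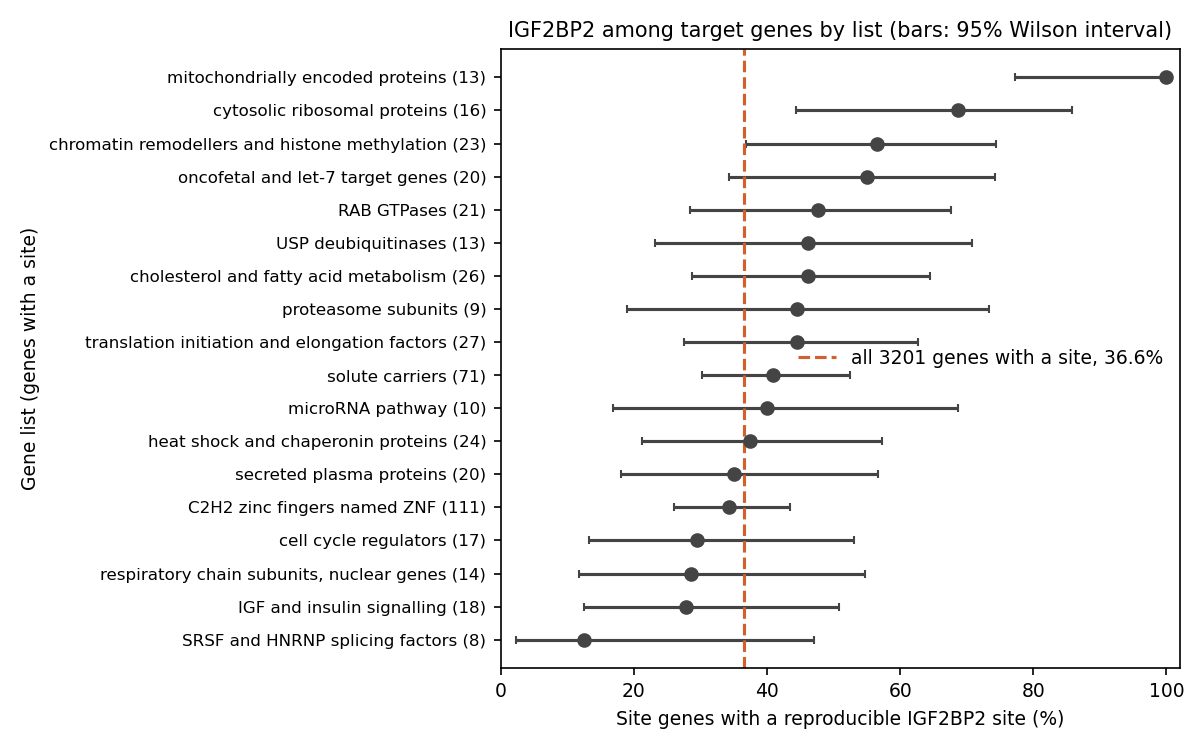
Percent of target genes with a reproducible IGF2BP2 site (horizontal axis) in each of 18 gene lists (vertical axis, number of genes with a site in brackets), with 95% Wilson intervals as bars and the value over all 3201 genes as a dashed line. The mitochondrially encoded proteins (13 of 13) and the ribosomal proteins (68.8%) lie above the 36.6% of all genes, and the splicing factors (12.5%) lie below it, for sites found in both IGF2BP2 libraries.

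In the ribosomal list the genes with the most loci were RPS29 and 2 paralogs outside the standard set, RPL7L1 with 3 IGF2BP1-only and 4 shared loci and RPS27L with 3 and 2. Ribosomal protein genes have many processed pseudogenes, and mapping allowed a read to match several places, so their clusters may be split between copies. Of the 85 genes listed, 16 had a site of either protein. In the chromatin list KMT2D led, before SETD5 with 3 IGF2BP1-only and 2 shared loci and KMT2A, a histone H3 lysine methyltransferase, with 3 and 1. In the oncofetal list PEG10 led, before ARID3A and HMGA2, an architectural chromatin protein and classic let-7 target. HMGA2 had 12 and 13 clusters against 4 and 5, with 9 IGF2BP1-only and 3 shared loci.

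Of the 20 secreted plasma protein genes with a site, 7 (35%) had an IGF2BP2 site, close to the background. SERPINA1, the alpha-1 antitrypsin of plasma, had 7 and 11 clusters against 4 and 2, with 5 IGF2BP1-only and 2 shared loci, and A2M, a plasma protease inhibitor, had 6 and 5 against 0 and 2 with 4 IGF2BP1-only loci. Cholesterol and fatty acid genes stood at 12 of 26 (46.2%). SCD, the stearoyl-CoA desaturase, had 7 IGF2BP1-only and 5 shared loci. FASN, the fatty acid synthase, had 13 and 15 clusters against 1 and 10, so the IGF2BP2 libraries differed widely from each other there.

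Among IGF and insulin signalling genes, 5 of 18 (27.8%) had an IGF2BP2 site, and 32 of their 66 loci were shared, 28 of them in IGF2. With any exonic IGF2BP2 cluster counted, 88.9% of these genes had one, whereas 1210 of all 3201 target genes had none. IGF1R, the receptor of IGF1 and IGF2, had 4 IGF2BP1-only and 0 shared loci. GSK3A, a kinase inhibited by insulin signalling, had 3 IGF2BP1-only loci and 0 shared. Cell cycle regulators stood at 5 of 17 (29.4%), and at 82.4% when any exonic IGF2BP2 cluster counted. CDK6, a kinase of the G1 phase, had 9 and 11 clusters against 1 and 5, with 7 IGF2BP1-only loci and 1 shared locus. CDKN1A, the p21 inhibitor of these kinases, had 6 and 8 against 1 and 4, with 5 IGF2BP1-only and 0 shared loci.

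The remaining lists were RAB GTPases (47.6%), USP deubiquitinases (46.2%), genes with EIF or EEF symbols (44.4%), proteasome subunits (44.4%), solute carriers (40.8%), the microRNA pathway (40%), heat shock and chaperonin proteins (37.5%), zinc fingers named ZNF (34.2%) and nuclear genes of the respiratory chain (28.6%). In the last of these NDUFS1, a complex I subunit, had 7 IGF2BP1-only and 4 shared loci, in contrast to the mitochondrially encoded subunits, whose loci were mostly shared. In the EIF and EEF list, EEF2, the translocation factor of elongation, had 5 IGF2BP1-only and 2 shared loci. In the microRNA pathway TNRC6B, an Argonaute partner, had 4 and 3, and AGO3 had 3 and 0.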

How the data were processed

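The unit is the interval of one cluster: per the study's methods, the authors quality-filtered, clipped and collapsed reads with the FASTX toolkit, mapped them with Bowtie to hg38 (named in the submitters' processing notes), allowing several positions per read, and called clusters with PARalyzer; the deposited files hold no other value. Versions are not given in the sources used here. Starts were read as counted from 1, since the base before an IGF2BP1 or IGF2BP2 cluster was G in 91.0% to 93.8% and the first base in 1.31% to 2.92%.

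Loci were built as described above, classed by midpoint on GENCODE v44 (coding sequence first, then 3' UTR, 5' UTR, other exon, intron, intergenic; chromosome M and other contigs apart) and searched on hg38. The bipartite element was CA placed 9 to 25 nt after GGCA or 15 to 25 nt after CGGC. Precision is set by the number of loci or clusters. Libraries were compared by exact permutation tests (Python 3.11.15, numpy 2.4.6, scipy 1.17.1, pysam 0.24.0). The members, gene lists and tests were chosen with earlier results of these data known. Named were the 8 genes with the most exonic loci of each kind and 3 per list. Sequences were printed for the first named genes with a single-copy exonic locus, up to 5 a kind. Some items that these rules chose are not reported here. Alternatives changed the overlap, the definition of a one-protein locus, copies, chromosomes, annotation order, transcripts, window, replicates and unit. Locus width, the 41-nt window and 3' UTR loci alone were added after seeing the data. The code passed 38 checks on simulated data. RNA levels and m7G maps were not analysed here.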

Additional observations from a re-analysis of the deposited data

Results flagged for a closer look

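The log2 ratio of IGF2BP2-only to IGF2BP1-only loci found was -1.87 in IGF2BP3 replicate 1, far from the other 3 IGF2BP3 libraries, which lay at -1.36, -1.26 and -1.32. Chance singles out about 1 in 20 groups of this size, 6 groups were screened, and 2 of the 4 libraries carry the label bio2. With single-copy centres alone IGF2BP3 replicate 1 was at -1.94 and the other 3 at -1.28, -3.00 and -3.65, so it was not the extreme library there. Over all one-protein loci, the log2 ratio differed by 3.30 between the METTL1 and WDR4 libraries and the IGF2BP3 libraries, by the exact permutation test over libraries (p = 0.0286, and 0.0571 adjusted over 2 tests).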

How the results depend on the processing

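The share of IGF2BP1 loci also bound by IGF2BP2 was 25.6%, and it was 46.3% when a cluster in 1 library of the other protein sufficed, 21.5% for single-copy centres and 24.4% on chromosomes 1 to 22, X and Y. The corresponding share of IGF2BP2 loci was 87.2%, and it was 95.2% and 90.7% under the first 2 of these. With each library left out in turn, these shares ran from 18.1% to 40.9% and from 59.2% to 91.3%, the extremes without IGF2BP1 replicate 1 and IGF2BP2 replicate 1 for the first, and without IGF2BP2 replicate 1 and IGF2BP1 replicate 2 for the second. Leaving out a library lets 1 library stand for a protein, so its unreproduced clusters count as sites. For IGF2BP2-only minus IGF2BP1-only loci, single-copy centres gave a difference of -4.52 points for the 3' UTR and -0.30 points for intergenic sequence. The UGUA difference of 2.60 points was -0.37 points for single-copy centres, -1.19 points for loci with no cluster of the other protein and -3.45 points in 3' UTR loci, and the other-exon difference of 1.55 points was -0.26 points for loci with no cluster of the other protein. The CAU element difference was -36.8 points and the single-copy difference -34.6 points for loci with no cluster of the other protein. Among 3' UTR loci the bipartite difference was 12.3 points and the single-copy difference -17.8 points. With each library left out, the 3' UTR difference ran from -17.4 to -9.20 points, the intron difference from 2.36 (without IGF2BP1 replicate 1) to 13.8 points (without IGF2BP2 replicate 1), the bipartite difference from 0.75 to 8.42 points and the single-copy difference from -28.3 to -24.1 points. IGF2BP1-alone genes were 37.8% of target genes when any exonic IGF2BP2 cluster counted.

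Per library, the IGF2BP2 minus IGF2BP1 difference turned in sign for the 3' UTR with single-copy centres (2.44 points) and on chromosomes 1 to 22, X and Y (0.20), for introns with single-copy centres (-2.22) and with 1 transcript per gene (-0.30), for intergenic sequence with single-copy centres (-0.75), for UGUA in 3' UTR clusters (-0.62), and for C with single-copy centres (0.18), on chromosomes 1 to 22, X and Y (0.013) and in 3' UTR clusters (0.87). Without a library these differences ran from -3.32 to 0.25 for the 3' UTR, from -1.47 to 2.38 for introns, from -0.60 to 1.45 for intergenic sequence and from -0.60 to 0.031 for C. The mean difference over the 8 other libraries was -1.44 points with single-copy centres and -5.94 points in 3' UTR loci, and ran from -10.9 to 9.69 points with a library left out. The log2 ratio difference of 3.30 kept its direction in every alternative and its exact p of 0.0286, except without the bio2 libraries (3.46, p = 0.0667) and when each protein was 1 unit (3.30, p = 0.333).

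Replicate numbers were not taken as pairs, since the differences between replicates 1 and 2 of IGF2BP1 and of IGF2BP2 correlated at -0.02 over 21841 sites. With the replicate block, the coding sequence difference was -3.70 points with an exact p of 0.5, the smallest of its 4 splits. Cluster numbers limit precision, and depth per cluster is unknown.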
